A study of Mus musculus with 6 samples.

Results

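Far from any protein-coding gene, blood monocytes of thrombocytopenic and control mice had many accessible sites in common. A peak in every library is part of how these sites were chosen. Accessibility had been mapped by ATAC-seq, an assay in which the Tn5 transposase cuts and tags DNA that is not wrapped tightly in chromatin. Peaks of the 6 libraries on chromosomes 1 to 19 that overlapped or touched were merged into 90477 regions, of which 67099 had a peak in all 6 libraries and are called shared below. Of these, 3419 lay at least 100 kb from the body of every protein-coding gene of the GRCm38 gene table and are called far distal regions. They were 69.1% of the 4951 far distal regions found in at least 1 library, while 74.2% of all merged regions were shared. For comparison, 21675 shared regions were near intergenic (more than 1 kb and under 100 kb from a protein-coding gene), 29051 lay in gene bodies and 12954 at gene ends, within 1 kb of either end of a gene.

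Regulatory DNA of a gene does not all sit at its promoter. Enhancers, stretches bound by transcription factors, can act over long distances by looping, and genes of cell fate and development often stand beside gene deserts, long gaps without protein-coding genes that carry many such elements. Accessibility marks where factors can bind, but it does not tell which gene an element serves, so the gene named beside a region below is the nearest protein-coding gene and not a shown target.

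Every mouse had received diphtheria toxin. The DTR group comprised 3 libraries of blood monocytes from PF4cre-iDTR mice, in which Cre under the Pf4 promoter, active mainly in megakaryocytes, switches on the toxin receptor, so that the toxin removes platelets and their precursors. The WT group comprised 3 libraries of blood monocytes from wild-type mice. Age and sex, and whether a library stands for 1 animal, are not stated in the labels, so each p-value below measures the spread among these libraries and no more.

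The authors made 1 peak list for each library, without read counts. A DTR list held 79569 to 81980 autosomal peaks and a WT list 76015 to 78560, with no overlap between groups, and read depth is unknown. A difference in depth and one in genotype cannot be told apart here. Shared regions stood at a gene end of 7 of 7 classical and 6 of 6 non-classical monocyte markers, and of 3 of 7 neutrophil, 3 of 5 B cell, 2 of 6 T and NK cell, 3 of 4 erythroid and 3 of 5 megakaryocyte markers. Strength is given below as the authors' fold enrichment over the caller's background, or as its percentile rank from 0 to 100 among the 67099 shared regions of the same library, where 50 is the middle.

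Only where a start site window of a long non-coding RNA (lncRNA) fell on a far distal region could its sequence be read. Of 11311 such windows, each spanning 250 bases before to 50 after the start, 103 windows of 92 genes overlapped 90 of the far distal regions (2.63%), and 43 regions held a whole window. The 4 windows shown were chosen after their values were seen: the highest ranked window lying wholly in a region (LOC115487176), one whose region ranked higher in every DTR library (1110002O04Rik), and those of 2 lncRNAs studied in myeloid cells. Morrbid restrains the pro-death gene Bcl2l11 in short-lived myeloid cells, and Mexis acts on the cholesterol transporter gene Abca1 in macrophages. Sequences are from RefSeq (GRCm38.p6), 5′ to 3′ on the gene's strand, with capitals marking letters searched for.
LOC115487176, chr9:61013180-61013479, plus strand: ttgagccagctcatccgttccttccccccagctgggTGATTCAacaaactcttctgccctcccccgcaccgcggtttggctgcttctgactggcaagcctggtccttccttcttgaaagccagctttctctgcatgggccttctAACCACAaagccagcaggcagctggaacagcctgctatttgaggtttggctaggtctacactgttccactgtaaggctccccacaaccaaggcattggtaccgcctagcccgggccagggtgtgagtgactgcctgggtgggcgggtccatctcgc
1110002O04Rik, chr1:35869698-35869997, plus strand: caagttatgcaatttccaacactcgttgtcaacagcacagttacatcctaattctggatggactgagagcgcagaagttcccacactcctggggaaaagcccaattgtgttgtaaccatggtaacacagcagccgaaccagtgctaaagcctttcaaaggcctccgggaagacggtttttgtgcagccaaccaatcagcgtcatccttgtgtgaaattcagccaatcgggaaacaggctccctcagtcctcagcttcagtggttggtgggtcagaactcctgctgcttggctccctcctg
Morrbid, chr2:128429302-128429601, minus strand: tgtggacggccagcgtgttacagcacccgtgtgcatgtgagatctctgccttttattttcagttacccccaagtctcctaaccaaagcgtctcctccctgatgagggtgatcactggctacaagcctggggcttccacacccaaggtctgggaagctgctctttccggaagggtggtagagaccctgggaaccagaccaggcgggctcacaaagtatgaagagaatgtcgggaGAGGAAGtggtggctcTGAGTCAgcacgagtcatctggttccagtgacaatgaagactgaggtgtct
Mexis, chr4:53270183-53270482, minus strand: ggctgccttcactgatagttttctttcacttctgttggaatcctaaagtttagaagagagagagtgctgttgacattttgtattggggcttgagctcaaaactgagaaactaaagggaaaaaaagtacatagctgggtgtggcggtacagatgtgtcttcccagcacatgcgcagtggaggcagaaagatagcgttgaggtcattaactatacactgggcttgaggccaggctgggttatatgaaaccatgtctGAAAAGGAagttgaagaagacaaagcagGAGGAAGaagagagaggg

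The letters searched for on both strands were GAGGAAG for PU.1, the main myeloid ETS factor, TGANTCA for AP-1, TTGCNNCAA for C/EBP, AACCACA for RUNX and GAAANNGA for interferon regulatory factors (IRF). The Morrbid window holds the PU.1 and AP-1 letters and the Mexis window the PU.1 and IRF letters, without overlap, and the Mexis matches lie in the 171 bases that belong to its region. The LOC115487176 window holds the AP-1 and RUNX letters, and no match was found in that of 1110002O04Rik. Over 1 window for each of the 90 regions, PU.1 letters occurred in 28.9%, against 19.2% of the 2204 lncRNA windows with any shared region. Of all 31396 windows, those of protein-coding genes included, 13.4% held them. The 2204 include the 90 windows. In the same order, RUNX letters stood in 12.2%, 6.08% and 5.32%, and IRF letters in 27.8%, 19.6% and 21.0%. AP-1 letters were found in 8.89%, 7.62% and 7.84%, and C/EBP letters in 1.11%, 1.63% and 2.07%. Median GC content was 49.2%, 57.0% and 53.0%, so the windows compared also differ in base composition. The 9107 lncRNA windows with no shared region were closest in GC content, at 47.3%. They held PU.1 letters in 12.4%, RUNX in 6.36%, IRF in 23.5%, AP-1 in 9.64% and C/EBP in 2.85%. For AP-1 and C/EBP the shares in the windows at far distal regions, 8 and 1 of 90, were below these. Letters were counted over whole windows, so a match could lie outside the far distal region. These are matches of letters, not sites shown to be bound.

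At Morrbid the fold was 5.24, 5.32 and 5.39 in the DTR libraries and 5.23, 5.08 and 5.58 in the WT libraries, so the groups overlapped. The region at the Mexis start, 109608 bp from Abca1, had folds of 8.39, 9.04 and 9.73 in DTR and of 8.15, 8.42 and 7.51 in WT, which also overlapped. At 1110002O04Rik the rank was 88.5, 90.3 and 91.6 in DTR and 84.5, 80.8 and 84.9 in WT, so each DTR library was higher. Over the 90 regions with a lncRNA start window the median rank was 55.1 ± 0.341 in DTR and 55.0 ± 3.68 in WT (SD, n = 3).

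As peaks, the far distal regions were about as wide as near intergenic ones. Having a peak in every library is part of how they were chosen; of the 4951 merged regions this far from genes 69.1% did, against 70.9% of gene body and 71.8% of near intergenic regions, and more at gene ends. Their median merged width was 584 bp, with quartiles of 386 and 839 bp and a range of 152 to 3126 bp. In 3329 of them (97.4%) each library had exactly 1 peak. None lacked bases covered in all 6 libraries, and the median length in common was 367 bp, or 70.7% of the width, the lowest of the 4 classes. The range of a region's rank over the 6 libraries had a median of 15.1 points, the widest of the 4 classes (8.64 to 13.5 in the others). The median of the lowest fold per region was 5.12, and in 3063 (89.6%) every library had a q-value of at most 1e-05. Across the 3419 regions the rank of fold in 2 libraries had a Pearson correlation of 0.913 to 0.946, below the 0.934 to 0.957 over all shared regions; these are correlations over regions and carry no test. The pair of DTR library 3 and WT library 2 was the lowest on both.

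By fold, far distal regions stood above other shared regions outside gene ends. Their median rank was 52.3, 52.5 and 52.6 in the DTR libraries and 51.1, 50.3 and 50.4 in the WT libraries. Near intergenic regions had median ranks of 47.2 to 47.8, gene body regions of 45.7 to 46.2 and gene end regions of 62.5 to 64.9 in the 6 libraries. The difference from near intergenic regions was 4.04 ± 0.851 percentile points (SD over 6 libraries; two-sided exact sign-flip permutation p = 0.031, the smallest 6 libraries allow), and it was above 0 in 6 of 6 libraries. Against gene bodies it was 5.62 ± 0.977 and against gene ends −12.2 ± 1.97, each in the same direction in 6 of 6 libraries (exact sign-flip permutation p = 0.031). The order depended on the measure: ranked by −log10 q in place of fold, far distal regions were 4.80 points below near intergenic ones in the median (difference −4.80, exact sign-flip permutation p = 0.031).

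Whether their length differed from that of near intergenic regions depended on the distance limit. The covered length, the bases of a region under a library's peaks, had a median of 494, 477 and 495 bp in DTR and of 471, 434 and 467 bp in WT. It differed from that of near intergenic regions by −2.33 ± 3.56 bp (SD over 6 libraries; exact sign-flip permutation p = 0.1875). With a limit of 50 kb the difference was 5.17 bp (exact p = 0.0625), and with 200 kb it was −22.8 bp and counting genes of every kind −16.5 bp (exact p = 0.031 each). Against gene ends, whose promoters form broad openings, it was shorter by 447 bp in the median (difference −447 ± 13.7 bp, exact sign-flip permutation p = 0.031).

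**Figure D1:**
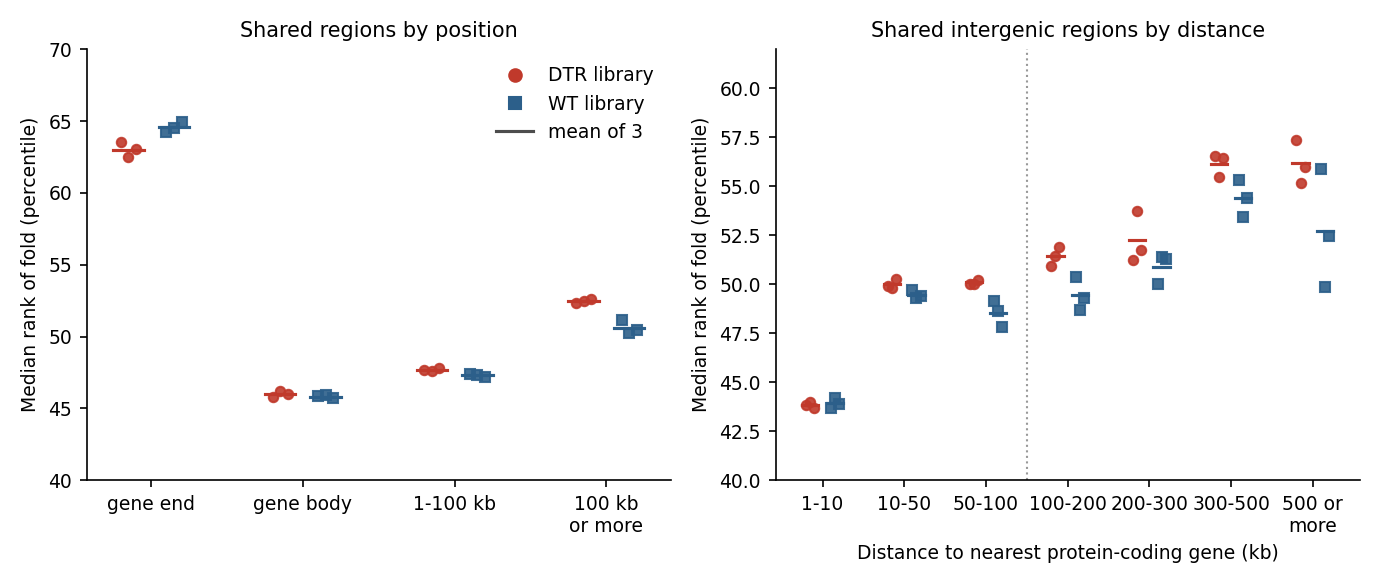
Left, median percentile rank of fold of the shared regions at gene ends, in gene bodies, 1 to 100 kb and 100 kb or more from the nearest protein-coding gene; right, the same for shared intergenic regions by distance in kb, with a dotted line at 100 kb. Each point is 1 library (circles DTR, squares WT) and each bar the mean of 3; far distal regions lie between 50.3 and 52.6, and the axes do not start at 0.

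Within the far distal regions, distance covered a wide span and was only weakly related to rank. The median distance to the nearest protein-coding gene was 173 kb, with quartiles of 129 and 254 kb. There were 1340 regions at 200 kb or more, 608 at 300 kb or more, 204 at 500 kb or more and 41 at 1000 kb or more. The mean of the 6 median ranks was 50.5 at 100 to 200 kb, 51.6 at 200 to 300 kb, 55.3 at 300 to 500 kb and 54.5 beyond. Over single regions the Spearman correlation of distance and mean rank was 0.036 (n = 3419), and that of width and mean rank 0.248, as a description of regions that share libraries.

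Around the limit of 100 kb values were mixed on both sides. Of the far distal regions closest to it, those near 3110040M04Rik, Unc5b, Smarca2 and Serp2 lay 100004 to 100135 bp from the gene and had folds from 3.97 to 7.49. The 5 shared regions just outside it, near Spred2, Rpl14, Gm38457, Cog6 and Ralgapa2, lay 99861 to 99949 bp away, with folds from 3.44 to 8.03.

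One site stood far above all others. The region at chr3:5860339-5860819, 281742 bp from the peroxisome assembly gene Pex2, had folds of 28.3, 28.1 and 27.4 in DTR and of 27.5, 28.2 and 28.1 in WT. The groups overlapped, and it ranked at 99.992 or higher in every library. The next, at chr6:37732395-37732764 near the chromatin reader gene Trim24, had folds of 16.5, 16.7 and 14.96 in DTR and of 15.3, 16.5 and 15.5 in WT. The other 8 of the 10 with the highest minimum rank were near Gm38457, Samd9l, Ptger4, Serbp1, Arhgef26, Vrk2, Adgrg6 and Rassf9, with minimum ranks of 99.2 to 99.5. Among them, the region in the lncRNA 5430437J10Rik, 295023 bp from the prostaglandin E2 receptor gene Ptger4, had folds of 13.8, 14.2 and 15.7 in DTR and of 14.995, 14.4 and 16.4 in WT. No list of sites prone to artefacts was applied here, and whether the highest ranks reflect open chromatin was not tested. Of all far distal regions 179 (5.24%) were in the top 10% of shared regions in every library and 124 (3.63%) in the bottom 10%. For gene ends these shares were 10.8% and 3.98%, and for near intergenic regions 4.58% and 6.02%.

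The most isolated region lay 1811787 bp from G6pd2, at chr5:59996545-59997055. Its folds were 8.09, 5.26 and 6.56 in DTR and 5.52, 5.31 and 5.98 in WT, overlapping between groups. Next came a pair on chromosome 3, 1641786 bp from Pcdh18 and 1632414 bp from Pabpc4l, with folds of 8.40 to 12.2, and a pair beyond Zeb2 at 1544531 and 1416147 bp, with folds of 3.16 to 6.43. The 5 longest regions were near Setbp1 (3126 bp), Ptger4 (2843 bp), Slco6d1 (2608 bp), Zeb2 (2569 bp) and, inside the lncRNA gene Lncpint, Mkln1 (2562 bp). Their ranks were moderate, from 11.1 to 70.5, so the longest far distal regions were not the strongest by fold.

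The regions were spread very unevenly over the gene deserts. Between neighbouring protein-coding genes, 1393 gaps had an interior at least 100 kb from both, 680 Mb in all, or 5.02 far distal regions per Mb. Of these gaps 878 (63.0%) held none. The 50 fullest held 1477 regions, 43.2% of the total, in 5.70% of the interior length. Length of the gap said little, with a Pearson correlation of 0.108 between interior length and number of regions over the 1393 gaps, and 114 of the 197 gaps with an interior of 1 Mb or more were empty.

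The fullest gap, between Nmbr and Cited2, held 57 regions in 2.75 Mb. Cited2 encodes a cofactor of CBP and p300 needed by blood stem cells. It was followed by Adam6a to Zfp386, which spans the immunoglobulin heavy chain locus Igh, with 55, Klf4 to Actl7b with 53, Id2 to Rnf144a with 51, Cd83 to Jarid2 with 50 and Runx1 to Setd4 with 46. Eea1 to Btg1 and Zeb2 to Acvr2a held 45 each, the former in 0.371 Mb and the latter in 3.50 Mb. The empty gaps with the longest interiors were Pcdh20 to Pcdh9 (4.34 Mb), Olfm4 to Pcdh17 (4.22 Mb) and Tenm3 to Aga (3.79 Mb). Protocadherins and teneurins are adhesion proteins of neurons. By chromosome, density ran from 2.15 far distal regions per Mb on chromosome 7 to 11.5 on chromosome 10, with 11.3 on chromosome 13.

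**Figure D2:**
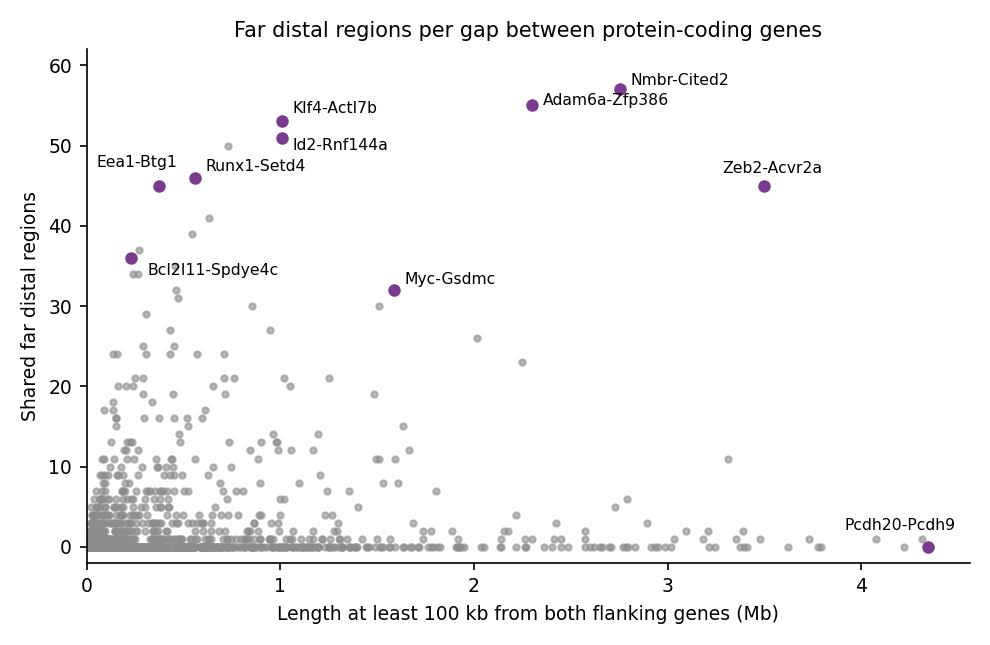
Each point is 1 gap between neighbouring protein-coding genes, with the length lying at least 100 kb from both on the x axis (Mb) and the number of shared far distal regions in it on the y axis. Named gaps are purple; Klf4-Actl7b holds 53 regions in 1.01 Mb, and Pcdh20-Pcdh9 none in 4.34 Mb.

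Gaps flanked by a listed myeloid transcription factor held more regions per Mb than the 5.02 over all gaps, but some of the fullest gaps, such as those from Nmbr to Cited2 and from Adam6a to Zfp386, had no such gene beside them. Of 40 listed myeloid transcription factors, 14 were the nearest protein-coding gene of 239 far distal regions (6.99%), while the same list was nearest to 1.23% of all shared regions. Developmental transcription factors also had a larger share, 1.26% against 0.277%, as did lymphoid genes, 1.37% against 0.347%. For AP-1 and NF-kB genes it was 0.994% against 0.285%. Cytokines, chemokines and receptors had 0.702% against 0.428%, and neuronal adhesion genes 0.322% against 0.156%. Of the lists beside a gap, only stem and progenitor regulators had a smaller one, 0.117% against 0.206%. The 24 gaps flanked by a listed myeloid factor held 340 regions, or 22.3 per Mb, and 6 of these gaps were empty. The 3 gaps beside AP-1 and NF-kB genes were denser still at 73.4 per Mb, with 54 regions. Gaps beside the listed cytokines, chemokines and receptors held 11.6 per Mb, those beside lymphoid genes 9.49 and those beside stem and progenitor regulators 5.25.

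By regions per Mb, lists of genes for other tissues were at the low end. Developmental transcription factors, 51 on the autosomes, flanked 49 gaps with 2.74 regions per Mb, of which 29 were empty. Neuronal adhesion genes flanked 80 gaps with 119 Mb of interior and 0.582 regions per Mb, and 58 of these were empty. No far distal region had a megakaryocyte and platelet, neutrophil, or monocyte surface and effector gene as its nearest gene. Genes of these 3 lists flanked no gap with such an interior, so the count follows from their surroundings in the genome. All these lists had been chosen with results of the same libraries known, and their densities are descriptions.

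**Figure D3:**
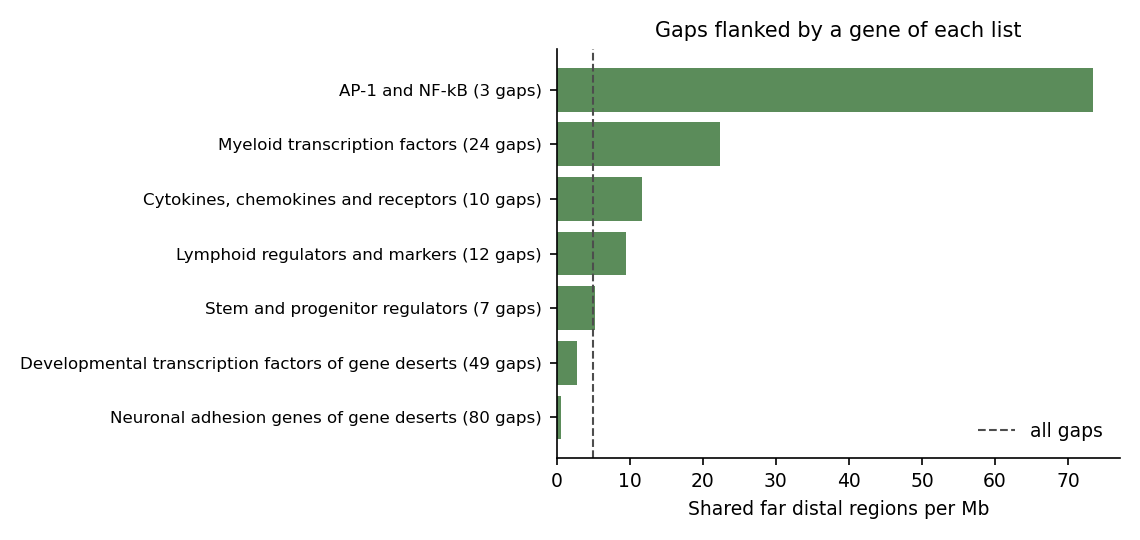
Bars give shared far distal regions per Mb of interior in gaps flanked by a gene of each list, with the number of gaps in brackets; the dashed line is the value over all gaps, 5.02 per Mb. Gaps beside AP-1 and NF-kB genes reach 73.4 per Mb over 3 gaps, and those beside neuronal adhesion genes 0.582 per Mb over 80.

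Id2 and Klf4 were each nearest to 44 far distal regions. Id2 encodes an inhibitor of helix-loop-helix factors used by several leukocyte lineages. Its regions ran from 101 to 553 kb away, 19 of them in non-coding genes, and had median ranks of 52.0, 47.8 and 47.3 in DTR and of 56.1, 54.1 and 48.9 in WT. Klf4 encodes a zinc finger factor required for monocyte formation. Its regions lay 112 to 589 kb away and had median ranks of 50.6, 49.4 and 49.0 in DTR and of 54.1, 47.4 and 48.2 in WT. The libraries of the groups overlapped at both genes.

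Zeb2, a repressor that helps to fix mononuclear phagocyte identity, was nearest to 33 regions at 102 to 1545 kb. Runx1, a master factor of blood formation, was nearest to 28 at 113 to 367 kb, and Klf6, another zinc finger factor, to 25 at 118 to 441 kb. The proto-oncogene Myc was nearest to 20 at 114 to 881 kb. Median ranks at these 4 genes lay between 33.8 and 63.1 over all libraries. The remaining myeloid factors were Maf and Tcf4 with 11 each, Ets1 with 8, Egr2 and Ets2 with 4, Cebpb and Nr4a3 with 3 and Irf8 with 1. Strength differed among them, from median ranks of 79.2 to 82.6 at Ets2 and of 75.5 to 80.8 at Cebpb down to 14.6 to 23.4 at Egr2 and to 2.96 to 13.4 at Irf8.

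At Nr4a3, an orphan nuclear receptor gene, the 3 far distal regions had median ranks of 70.6, 75.6 and 71.2 in DTR and of 62.2, 55.6 and 52.3 in WT, and every DTR library was above every WT library. The opposite order was seen at Prdm1, the gene of the repressor Blimp-1, whose 16 regions had median ranks of 44.9, 53.7 and 42.4 in DTR and of 57.5, 69.6 and 55.3 in WT. Both were singled out after their values were seen and carry no test.

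Among inflammatory genes, the AP-1 subunit Jun was nearest to 16 far distal regions, the NF-kB cofactor gene Nfkbiz to 12 and the NF-kB brake Tnfaip3 to 6. Cxcr4, the receptor that holds leukocytes in bone marrow, was nearest to 13, with median ranks of 59.1 to 70.1 over the 6 libraries. Tgfbr2 was nearest to 6 and Cxcl12, the ligand of Cxcr4, to 2 regions at ranks of 86.8 to 94.1. Of lymphoid genes, Prdm1 was followed by Bcl11a with 14 and Bcl6 with 11. Kit, the stem cell factor receptor gene, and Satb1 had 2 each. Of the developmental list Sox4 was nearest to 12, all of them in non-coding genes, and Tbx3 and Tshz1 to 6 each. From the neuronal list the leading genes were Cdh10, Cdh12 and Negr1, each with 2.

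Most far distal regions did not stand alone. When those separated by at most 50 kb were joined, 335 chains of 3 or more took in 2748 regions (80.4%), while 367 (10.7%) had no far distal neighbour in that range. The longest chain ran between the early endosome gene Eea1 and the antiproliferative gene Btg1, with 45 regions over 353 kb. The next held 44 between Cd83, an activation marker, and Jarid2, a Polycomb partner, 41 between Mmadhc and Rnd3, 39 beside Id2 and 38 beside Klf4. In these 5 chains the median rank over the 6 libraries averaged 43.2 to 59.6, and DTR and WT differed by −4.74 to 3.35 percentile points.

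A large part lay in non-coding genes. Of the 3419 regions, 1077 (31.5%) overlapped a gene that is not protein-coding, beside 22.9% of near intergenic regions. Such genes filled 12.4% of the desert interiors, which is a share of length and not of regions. For lncRNA genes the values were 955 regions (27.9%), 20.4% of near intergenic regions and 10.4% of the length. Regions in lncRNA genes had a median rank of 48.5, averaged over the libraries, and the others one of 52.7. No far distal region overlapped an annotated miRNA gene. Only 320 regions lay at least 100 kb from genes of every kind.

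Of the non-coding genes, 15 held 10 or more regions each. Morrbid led the lncRNAs with 21 regions, and the gap it lies in, from Bcl2l11 to Spdye4c, held 36 in 0.229 Mb, or 157 per Mb. Median ranks of the 21 were 40.6, 42.4 and 36.2 in DTR and 35.7, 40.2 and 41.8 in WT, so the groups overlapped. A930011G23Rik beyond Rasgef1b and Lncpint beyond Mkln1 held 16 each. Gm13986, near the thrombospondin gene Thbs1, held 15 with median ranks of 69.7 to 75.5. The 11 regions in LOC108167736, near the glutamine synthetase gene Glul, had median ranks of 23.4, 29.3 and 29.3 in DTR and of 38.4, 46.8 and 48.4 in WT. Each WT library was thus above each DTR library there, a gene picked out after its values were seen.

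Antigen receptor loci are typed neither as protein-coding nor as lncRNA in the gene table, so 74 regions in them (2.16%) met the distance rule. Igh held 56 and the T cell receptor alpha locus Tcra 11. In Igh the median rank was 50.6, 52.0 and 51.9 in DTR and 47.7, 40.9 and 48.4 in WT, with every DTR library higher. Shared regions stood at a gene end of 3 of 5 B cell markers, as given above, and whether B cells were present in the samples was not tested.

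No single far distal region passed the test of rank between genotypes. With limma on the normal scores of the ranks and Benjamini-Hochberg adjustment over all 67099 shared regions, 0 regions passed in either direction (0% of all tested). At an unadjusted limma p under 0.05, 314 far distal regions (9.18%) were higher and 152 (4.45%) lower in DTR, against 5.84% and 4.77% of all shared regions. The ranks of the groups did not overlap in 336 far distal regions (9.83%) that were higher in DTR, beside 7.35% of all shared regions, and in 264 (7.72%) that were lower, beside 9.96%. At gene ends these shares were 4.28% and 13.1%, and in near intergenic regions 8.31% and 9.01%.

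The smallest adjusted p fell just above the threshold. At chr12:92740864-92741404, 142313 bp from Gm40892, the fold was 9.06, 8.76 and 8.43 in DTR and 13.1, 13.3 and 14.3 in WT. Its rank was 85.6, 82.3 and 81.8 against 99.4, 99.2 and 99.6, so every WT library was higher (difference −16.2 percentile points, limma adjusted p = 0.0509). It passed when peaks were limited to a q-value of 1e-05 (limma adjusted p = 0.0283), with lists of equal length (0.0434) and with the fold averaged over covered bases (0.0467). The second, at chr2:178854116-178854346, 366749 bp from the cadherin gene Cdh26, had folds of 12.8, 13.7 and 13.5 in DTR and of 9.59, 9.002 and 9.16 in WT (limma adjusted p = 0.0993). Both were singled out for these p-values. With any 1 library left out, 0 far distal regions passed by rank. The number was also 0 when ranked by −log10 q, with peaks up to 200 bp apart merged and with a replicate block.

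The largest rank differences were found near genes of varied function. Toward DTR the first was at chr2:137807349-137808271, 448312 bp from Btbd3, with ranks of 75.5, 70.8 and 83.5 in DTR and of 43.8, 23.6 and 31.4 in WT (difference 43.7, limma adjusted p = 0.183). Mettl15 (34.4), Myc (34.0), Ccdc171 (33.0) and Xkr9 (31.1) followed. The region near Myc, at chr15:61860797-61861113 and 124227 bp away, had ranks of 50.4, 58.6 and 74.8 in DTR and of 40.1, 26.2 and 15.4 in WT. The 20 regions nearest to Myc as a set had median ranks of 35.0 to 43.4 in DTR and of 33.8 to 40.4 in WT, which overlapped.

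Toward WT the largest was at chr17:89454389-89454642, 253713 bp from the follicle-stimulating hormone receptor gene Fshr. Its ranks were 30.4, 38.6 and 34.2 in DTR and 60.9, 76.9 and 70.8 in WT (difference −35.1, limma adjusted p = 0.183). Regions near Rasgef1b (−33.0), Lmo4 (−26.3), 1500009L16Rik (−25.5) and Mreg (−23.0) came next. None of these 10 passed the adjusted limma test, and with the groups separated by choice their direction is not evidence of a difference.

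As a class, far distal regions had a slightly higher median rank in each DTR library than in each WT library. The median rank was 52.5 ± 0.164 in DTR and 50.6 ± 0.470 in WT (SD, n = 3), a difference of 1.87 percentile points with no overlap between groups (two-sided exact permutation p = 0.1, the smallest that 3 against 3 allows). Near intergenic regions differed by 0.395 points and gene body regions by 0.188, while gene ends differed by −1.56. Because ranks within a library sum to a fixed total, classes cannot all move the same way. The distance of the far distal median from that of near intergenic regions was 4.78 ± 0.131 points in DTR and 3.31 ± 0.409 in WT (exact permutation p = 0.1). With distance, the DTR minus WT difference of the medians was −0.078 points at 1 to 10 kb, 0.517 at 10 to 50 kb, 1.57 at 50 to 100 kb, 1.96 at 100 to 200 kb, 1.33 at 200 to 300 kb, 1.77 at 300 to 500 kb and 3.43 beyond.

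This difference was not shared by the crowded deserts. In the 50 fullest gaps the median rank was 48.2, 49.4 and 49.1 in DTR and 49.5, 48.7 and 49.5 in WT, which overlapped, with a difference of −0.343 points. The 1942 regions elsewhere had median ranks of 54.9, 54.6 and 55.5 in DTR and of 52.8, 51.3 and 51.0 in WT, with a difference of 3.28 points and no overlap. Regions whose nearest gene was a listed myeloid factor differed by −0.0743 points, with overlapping groups (49.4 ± 2.35 in DTR and 49.4 ± 1.04 in WT, SD, n = 3). All others differed by 2.01 (52.7 ± 0.348 in DTR and 50.7 ± 0.461 in WT). With the wider spread of the 239 myeloid regions, their values cannot show whether a shift of that size is absent.

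Among 4 groupings by crowding, regions alone within 50 kb differed most between genotypes. These 367 had median ranks of 57.6, 58.0 and 56.7 in DTR and of 51.9, 47.8 and 50.4 in WT, and each DTR library was higher (difference 7.39 points). In 73 of them (19.9%) the DTR libraries were all above the WT libraries and in 16 (4.36%) all below. Over all shared regions these shares were 7.35% and 9.96%. In chains of 10 or more, 1464 regions had median ranks of 49.0, 49.3 and 48.9 in DTR and of 48.7, 49.3 and 50.2 in WT, which overlapped. Of these, 111 regions (7.58%) were higher and 143 (9.77%) lower without overlap, close to the shares over all shared regions. Pairs differed by 5.17 points with overlapping groups and chains of intermediate size by 2.01 without overlap. Regions alone were also narrower, with a median width of 517 bp against 603 bp in the largest chains. The groupings by crowding were made after seeing the data, so they carry no test, and the part that list length or depth has in them was not tested.

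**Figure D4:**
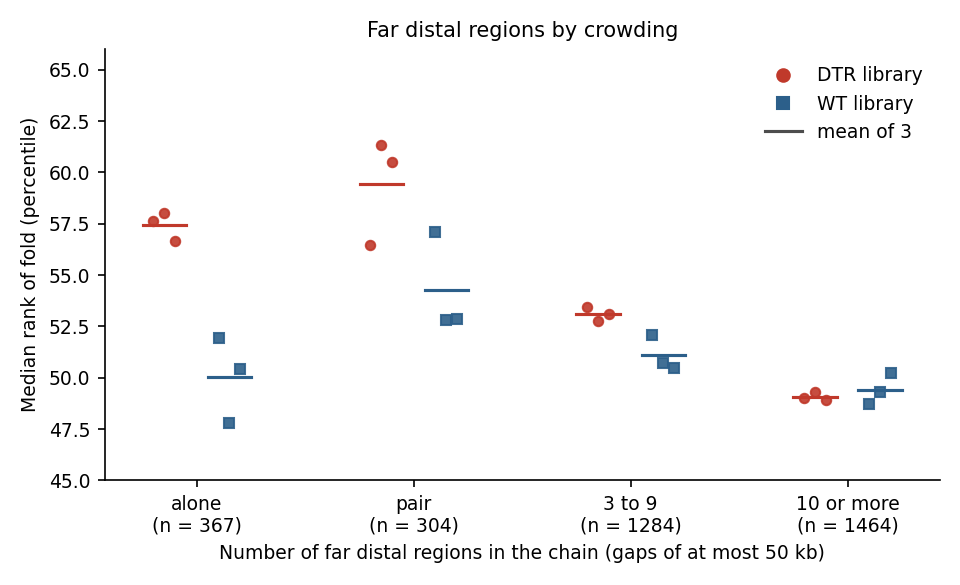
Median percentile rank of fold of far distal regions by the number of regions in their chain, with gaps of at most 50 kb; each point is 1 library (circles DTR, squares WT), each bar the mean of 3, and the y axis does not start at 0. Regions alone lie at 56.7 to 58.0 in DTR and 47.8 to 51.9 in WT, while both groups meet near 49 in chains of 10 or more.

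Covered length gave a few regions that passed the test. By limma on log2 covered length with Benjamini-Hochberg adjustment, 8 far distal regions (0.234%) were longer in DTR and 0 shorter, beside 0.191% and 0.0224% of all shared regions, so the share of longer ones was close to the background. Groups did not overlap in length in 468 far distal regions (13.7%) that were longer in DTR, beside 13% of all shared regions, and in 75 (2.19%) that were shorter, beside 1.87%. The median covered length over all shared regions was 561 ± 10.6 bp in DTR and 531 ± 21.7 bp in WT (SD, n = 3).

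The smallest of the 8 p-values was that of chr4:89487070-89488139, in the non-coding gene Gm12610 and 176037 bp from Cdkn2b, which encodes a cell cycle inhibitor. Its peaks covered 1054, 1063 and 1054 bp in DTR and 540, 492 and 536 bp in WT (log2 difference 1.02 ± 0.0471 SE, limma adjusted p = 0.0087). In A930011G23Rik, 233779 bp from Rasgef1b, the region at chr5:99486707-99487275 covered 538, 569 and 498 bp in DTR and 251, 260 and 278 bp in WT (log2 difference 1.02 ± 0.0682 SE, limma adjusted p = 0.0208). This region was at the same time one of the 5 with the largest loss of rank in DTR, with folds of 4.58, 5.05 and 4.17 in DTR and of 7.15, 6.62 and 6.29 in WT. It was therefore covered over a greater length at a lower mean enrichment.

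In the Igh locus the region at chr12:114562548-114564595 covered 2005, 2027 and 2007 bp in DTR and 1556, 1568 and 1593 bp in WT. Near Haao, an enzyme gene of tryptophan breakdown, the values were 1691, 1708 and 1682 bp in DTR and 820, 936 and 996 bp in WT. Further ones were near Tbc1d1, Sox4 and Kif20b. In each of the 8 the groups did not overlap, and log2 differences ran from 0.356 to 1.27 (limma adjusted p from 0.0087 to 0.041).

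In 7 of the 8 the mean rank of fold was lower in DTR; near Tbc1d1 it was 1.24 points higher. Over all far distal regions the DTR minus WT differences in log2 covered length and in rank had a Pearson correlation of −0.113 (n = 3419). The calls depended on single libraries: without DTR library 3 none of the 3419 regions passed, without DTR library 1 the number was 5, without WT library 2 it was 5 (3 longer and 2 shorter in DTR), and without WT library 1 it was 23 (22 longer and 1 shorter). These were not always the same regions. Of the 8 themselves, 1 passed without DTR library 1, 2 without DTR library 2 and 0 without DTR library 3. Without WT library 1, 2 or 3 the numbers were 7, 2 and 3, and with a replicate block 0 passed.

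**Figure D5:**
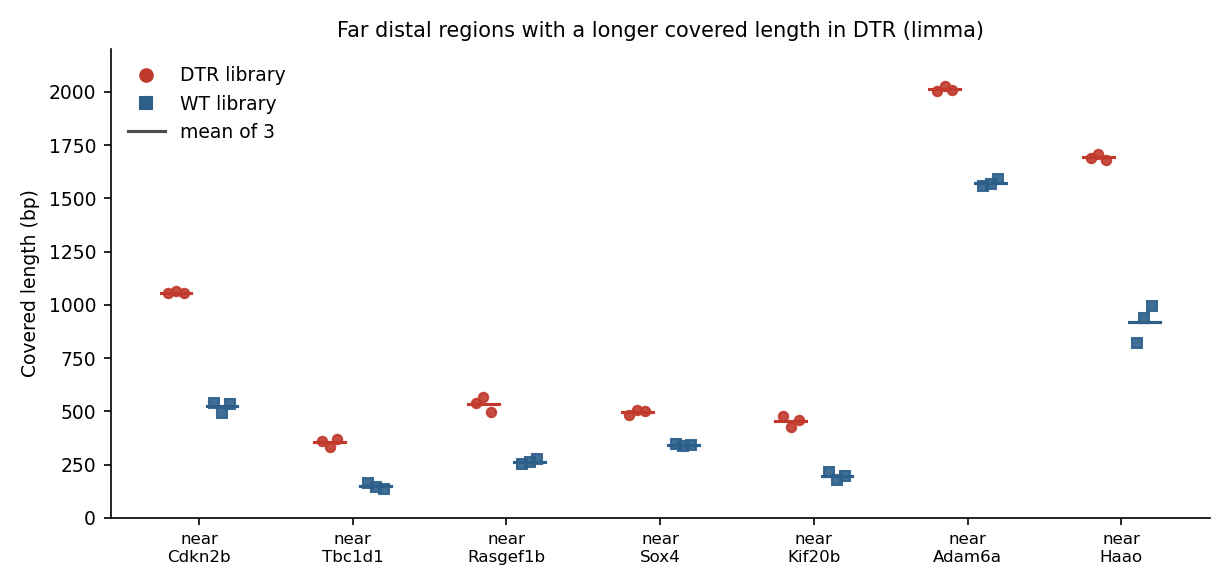
Covered length in bp of 7 of the 8 far distal regions that were longer in DTR by limma, each named by its nearest protein-coding gene; points are libraries (circles DTR, squares WT) and bars the means of 3. In these 7 the points of the groups are apart, as at Cdkn2b with 1054 to 1063 bp in DTR and 492 to 540 bp in WT.

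Peaks far from genes, shared or not, were more numerous in each DTR list than in each WT list. There were 4426, 4268 and 4290 far distal peaks in the DTR lists and 3986, 3906 and 4100 in the WT lists, which did not overlap. They covered 2.20, 2.11 and 2.19 Mb in DTR and 2.02, 1.85 and 1.99 Mb in WT. As a share of the autosomal list they were 5.40%, 5.36% and 5.39% in DTR and 5.22%, 5.14% and 5.22% in WT (difference 0.191 percentage points, two-sided exact permutation p = 0.1). DTR lists were longer as a whole. With lists cut to equal length the difference was 0.136 percentage points (exact permutation p = 0.1), and whether depth moves the share was not tested.

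Far distal regions present in all libraries of one group and in none of the other were few. There were 58 for DTR (1.17% of the 4951 far distal regions, beside 0.794% of all merged regions) and 2 for WT (0.0404%, beside 0.0984%). The share for DTR was the largest of the 4 classes, with 0.938% of near intergenic, 0.808% of gene body and 0.32% of gene end regions. The share for WT was the smallest, with 0.0556% to 0.119% in the other classes. The 58 were narrow and weak, with a median width of 210 bp and a median lowest fold of 3.22, against 584 bp and 5.12 for the shared far distal regions. Width and lowest fold were taken over 3 libraries for the 58 and over 6 for the shared regions, so the measures differ. The strongest of the 58, at chr2:51000375-51000535 and 129903 bp from Rnd3, had folds of 6.46, 7.25 and 6.93 in the DTR libraries. The WT pair lay on chromosome 5, at chr5:118364679-118364963 near Spring1 with folds of 3.59, 4.18 and 3.65, and at chr5:99353224-99353587 near Rasgef1b with folds of 3.53, 3.73 and 3.31. These 3 were named after their values were seen. With lists cut to equal length the numbers were 44 for DTR and 14 for WT, and with any 1 library left out, so that fewer peaks were required, they were 87 to 116 and 4 to 12.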

How the data were processed

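ATAC-seq libraries of blood monocytes, 3 DTR and 3 WT, were analysed. The submitters' processing notes name MACS2, Bowtie2 2.4.4, Bowtie and fastp; their settings, a read shift and the genome build were not given in the sources used here. The deposited broad peak lists, 1 per library, hold the authors' score, their fold enrichment (a ratio) and the −log10 p-value and q-value per the file format. In MACS2's broad mode these are means over a peak, so fold and length are not independent. Depth is unknown, and no count interval can be given.

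Positions follow the deposited lists and count from 1. The fit of the RefSeq GRCm38.p6 tables was checked: 56.5% of 20085 protein-coding start windows overlapped a shared region, against 5.21% and 5.70% after a move of 5 or 20 kb. The table has no strand, so gene ends stand for start sites. A region's value in a library is its highest fold, ranked from 0 to 100 among the 67099 shared regions. Rank (as normal scores) and log2 covered length were fitted with limma 3.58.1 (R 4.3.3) on group alone, with an adjusted threshold of 0.05. The fit of rank was also run on simulated data, and that of covered length was not. Medians per library were compared by exact permutation, and region classes by exact sign flips over libraries (Python 3.11.15, numpy 2.4.6, pandas 2.3.3, scipy 1.17.1, matplotlib 3.10.9).

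Named regions were the 10 with the highest minimum rank, the 5 farthest, longest, just inside and just outside the limit, the 5 with the largest rank difference each way among non-overlapping ones, the 5 longest chains, and up to 3 genes per list; others were named after their values were seen, and a few items the rule selects are not reported here. Members and lists were chosen with earlier results of these data known. Sequences were to be printed only with a genome; none was used, and start windows from RefSeq took its place. Alternatives changed the distance limit, q, list length, merging, measure, reference class and libraries.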

Additional observations from a re-analysis of the deposited data

How the results depend on the processing

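Of 123 alternative values of the comparisons, 77 did not turn direction or cross the threshold (counts: stayed within 1.5 times). Part of this tally was fixed in advance, so it does not measure how stable the results were. For median rank and list share between genotypes, the exact permutation p cannot fall below 0.1. These values could therefore change only by turning direction. With 1 library left out, the rank difference from near intergenic regions could not pass and had to count as changed. The number of far distal regions was 6594 with a limit of 50 kb, 1340 with 200 kb and 320 counting genes of every kind. With these limits, regions called by covered length with limma were 15 (14 longer and 1 shorter in DTR), 3 (all longer) and 0, DTR-only regions 118, 24 and 5, and WT-only regions 6, 0 and 0. WT-only regions were 8 at a q-value of at most 1e-05 and 14 with lists of equal length. By rank, 1 region passed with q at most 1e-05, with equal lists and with fold averaged over covered bases, the one near Gm40892 each time. With any 1 library left out, ranked by −log10 q or with peaks up to 200 bp apart merged, 0 passed by rank. The median covered length of far distal minus near intergenic regions turned to 5.17 bp at 50 kb (exact sign-flip p = 0.0625) and 2.42 bp with the stricter q (exact p = 0.125), and was −22.8 bp at 200 kb, −16.5 bp with genes of every kind and −20.8 bp against gene bodies (exact p = 0.031 each). The rank difference from near intergenic regions turned to −4.80 by −log10 q. DTR minus WT in median rank turned to −0.343 in the 50 fullest gaps alone, and was 3.28 without them and 1.77 without antigen receptor loci, 3 settings chosen after seeing the data. Leaving out each library, regions called by covered length ranged from 0 to 23, with at most 2 shorter in DTR (2 of 5 without WT library 2), the rank difference from near intergenic regions from 3.78 to 3.94 (smallest possible exact p with 5 libraries 0.0625), DTR-only regions from 87 to 116 and WT-only from 4 to 12. Deviations of rank in libraries of the same number had correlations of −0.000424, 0.0743 and −0.0293 over shared regions. Those of different number had −0.0877 to 0.0902. DTR library 1 correlated best with WT library 3, DTR library 2 with WT library 2 and DTR library 3 with WT library 1. With a replicate block 0 regions passed by rank or by covered length, and the median differences stayed at 1.87 points and 0.191 percentage points (exact sign-flip p = 0.25, the smallest 3 pairs allow). The cause of these changes was not tested, except that fewer libraries or other limits change the regions counted. Unknown depth limits every comparison of weak peaks.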
